A study of Mus musculus with 6 samples.

Results

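The 43 genes described here encode factors that make ribosomes in the nucleolus. They were chosen as a list of gene symbols for ribosomal RNA synthesis, ribosomal RNA modification and subunit assembly. Their measured values were not used, but earlier results of these data were known when the list was chosen. The count table held 34573 genes, all 43 factors were in it, and all 43 were abundant enough to be tested. RNA was taken from hematopoietic stem cells (HSCs), the rare bone marrow cells that renew themselves and give rise to all blood lineages. These were sorted from mice as cells without lineage markers or CD48 and with c-Kit, Sca-1 and CD150. There were 3 libraries of polyadenylated RNA from mice lacking Rpl22, a protein of the large ribosomal subunit (Rpl22-/-), and 3 from wild-type mice (Rpl22+/+), young adults on a C57BL/6 background. The study used them to ask which transcripts depend on Rpl22 in HSCs. Whether a library came from 1 mouse or from pooled mice is not given in the sources used here, so each p-value measures only the spread between these libraries.

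Ribosome production starts when RNA polymerase I copies a long precursor RNA from the ribosomal DNA repeats. Small nucleolar RNAs in protein complexes (snoRNPs) then guide chemical marks onto it, with box C/D snoRNPs placing methyl groups on ribose and box H/ACA snoRNPs turning uridine into pseudouridine. A large assembly called the small subunit processome folds and cuts the part that becomes the small subunit, and other factors build the large subunit and carry both to the cytoplasm. HSCs are known for a low rate of protein synthesis.

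Rpl22 was low in each Rpl22-/- library, so the labels held, with 449, 527 and 546 counts in its replicates 1, 2 and 3, against 6890, 7001 and 5031 counts in the wild-type replicates. Counts on genes totalled 9321123 to 13385850 per library, with the least in Rpl22+/+ replicate 3. Values of single libraries are listed below in the order of their replicate numbers. Levels are given as CPM, the counts of a gene brought to a common library size with edgeR's TMM scaling, and changes as log2 fold changes of Rpl22-/- over Rpl22+/+ with their standard errors (SE). A gene was called when the p-value of edgeR's quasi-likelihood test, adjusted over all 14004 genes tested, was below 0.05. This gave 459 higher and 321 lower genes, or 369 and 481 when libraries were scaled by size alone. At an unadjusted p under 0.05, 1629 genes were higher and 1493 lower. The tests of DESeq2 and limma-voom called 1056 and 742 genes. The summed level of 12 HSC markers was 3295 to 3653 CPM in Rpl22-/- libraries and 3401 to 3431 CPM in Rpl22+/+ libraries, with 1 of the 12 called higher and 1 lower. Markers of other lineages were low for B cells (at most 29.6 CPM in sum, with Ms4a1 and Igll1 at 0), T cells (at most 16.5 CPM, with Cd3e at 0), erythroid cells (at most 42.1 CPM) and macrophages (at most 24.2 CPM). Neutrophil markers summed to 211 CPM in Rpl22-/- replicate 2 and to between 66.1 and 106 CPM elsewhere. Of 8 neutrophil markers, 7 had positive log2 fold changes, 5 of them with an unadjusted p under 0.05, with a median of 1.53 over the 8, and 1, Camp, was called higher. Of 4 erythroid markers tested, 1, Car1, was called lower. The 5 megakaryocyte markers summed to 976 to 1234 CPM in Rpl22-/- libraries and to 708 to 922 CPM in Rpl22+/+ libraries, and 4 of them were called higher. The part of the neutrophil and megakaryocyte markers in the results below was not tested.

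In Rpl22-/- HSCs, 6 of the 43 factors were called higher and none lower. They were Lyar, Fbl, Nolc1, Nop10, Gar1 and Pes1, with log2 fold changes between 0.34 and 0.54, or 1.27-fold to 1.45-fold. Over all genes tested, 3.28% were called higher and 2.29% lower, against 13.95% and none of the factors. The median log2 fold change of the 43 was 0.14, against -0.0068 over all genes, and 31 factors had positive and 12 negative values (29 to 32 positive under the other scalings), where 48.7% of all genes were positive. Every Rpl22-/- library was above every Rpl22+/+ library for 10 of the factors (23.3%, against 13.3% of all genes), and the reverse held for none (against 13.6%). With the length trend removed, alone or together with the GC trend, only Fbl and Nolc1 were called. The calls over all genes then fell from 780 to 642 and 505. The count also depended on single libraries, as described below, and the median was -0.012 when Rpl22-/- replicate 2 and Rpl22+/+ replicate 3 were both left out. In bulk RNA, a higher level per cell and a larger share of cells that express a gene cannot be told apart, nor can fewer cells of a type and less RNA per cell.

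**Figure D1:**
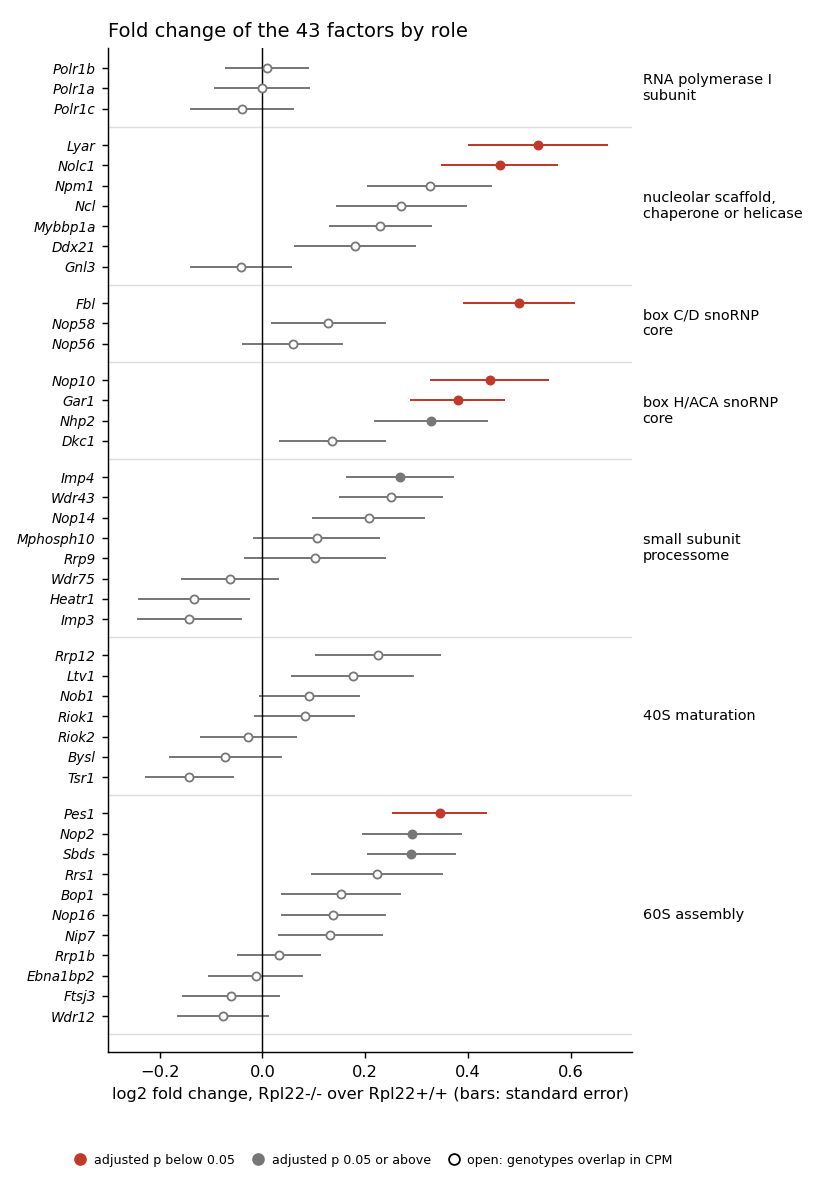
Log2 fold change of each of the 43 factors (points, with the standard error as a bar), grouped by role, where red marks an adjusted p below 0.05 and open points mark factors whose genotypes overlap in CPM. The 6 called factors lie between 0.34 and 0.54, and the RNA polymerase I subunits lie between -0.04 and 0.01.

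For the first step, transcription of ribosomal DNA, the transcripts of 3 RNA polymerase I subunits showed no called change. That transcription itself was not measured. Polr1a, the largest subunit of RNA polymerase I, averaged 111 ± 7.76 CPM (SD, n = 3) without Rpl22 and 111 ± 10.9 CPM with it. Polr1b, the second largest subunit, differed by 0.01 ± 0.08 on the log2 scale. Polr1c, which RNA polymerases I and III share, differed by -0.04 ± 0.10. None of these 3 had an unadjusted p under 0.05 in edgeR, and neither DESeq2 nor limma-voom called one.

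Among 7 genes for nucleolar scaffold proteins, chaperones and helicases, 6 had positive log2 fold changes, and 2 of these were called higher. Lyar (chr5:38220470-38234306, + strand, GRCm38), a nucleolar zinc finger protein, had 1001, 1369 and 1226 counts in the Rpl22-/- libraries against 954, 877 and 501 in the Rpl22+/+ libraries. Its mean rose from 65.3 ± 11.5 CPM (SD, n = 3) to 95.03 ± 18.0 CPM, and its log2 fold change, 0.54 ± 0.14 (SE), was the highest of the 43 (adjusted p = 0.0328). The genotypes did not overlap, although Rpl22-/- replicate 1 lay close to Rpl22+/+ replicate 1. Nolc1 (chr19:46075863-46085530, + strand), the chaperone that shuttles snoRNPs between nucleolus and Cajal bodies, had 2786, 3424 and 3108 counts in Rpl22-/- libraries and 2463, 2425 and 1457 in Rpl22+/+ libraries. Its level rose from 178 ± 23.4 CPM to 246 ± 35.0 CPM, by 0.46 ± 0.11 on the log2 scale (adjusted p = 0.0288). Npm1 and Ncl, the abundant structural proteins of the nucleolus, had log2 fold changes of 0.33 ± 0.12 and 0.27 ± 0.13 that did not pass the test (adjusted p = 0.126 and 0.222), and their genotypes overlapped. Mybbp1a, a nucleolar regulator of transcription, and Ddx21, an RNA helicase, had log2 fold changes of 0.23 ± 0.10 and 0.18 ± 0.12 without a call. Gnl3, or nucleostemin, a nucleolar GTPase, was the exception in direction at -0.04 ± 0.10.

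Of the 3 genes for core proteins of box C/D snoRNPs among the 43, only Fbl was called. Fbl (chr7:28169710-28179269, + strand), or fibrillarin, is the enzyme that transfers the methyl group. Its counts were 2799, 3705 and 3375 without Rpl22 and 2405, 2363 and 1722 in the wild type. Every Rpl22-/- library was above every Rpl22+/+ library, and the mean rose from 185 ± 5.25 CPM (SD, n = 3) to 261 ± 45.3 CPM. The log2 fold change was 0.50 ± 0.11, with the smallest adjusted p among the 43 (0.0168). The scaffold proteins Nop56 and Nop58 had log2 fold changes of 0.06 ± 0.10 and 0.13 ± 0.11 with overlapping genotypes. A pseudogene copy of Fbl, Gm5812, shares 984 bases at 96.8% identity and had 3 to 26 counts per library. A transcript of Tulp4 shares 690 bases with Fbl at 99.6% identity, and Tulp4 had 40, 72 and 82 counts in Rpl22-/- libraries and 40, 37 and 37 in Rpl22+/+ libraries.

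The box H/ACA core had the highest median log2 fold change of the 7 roles, 0.35, and 2 of its 4 genes were called higher. Neither kept its call when the trend of counts on gene length was removed from each library (adjusted p = 0.0989 for Nop10 and 0.0693 for Gar1) or when both the length and the GC trend were removed (0.0884 and 0.171). Nop10 (chr2:112261926-112263269, + strand), the smallest of them, had 1551, 1817 and 1627 counts in Rpl22-/- libraries and 1346, 1341 and 764 in Rpl22+/+ libraries. It rose by 0.44 ± 0.12 on the log2 scale (adjusted p = 0.0366), from 96.8 ± 15.2 CPM to 132 ± 16.8 CPM. Gar1 (chr3:129824912-129831396, - strand), which helps the complex release its product, had 986, 1052 and 1091 counts against 859, 826 and 552. It rose by 0.38 ± 0.09 (adjusted p = 0.0267), from 63.2 ± 5.03 CPM to 82.4 ± 5.37 CPM. In both genes the lowest value was in Rpl22+/+ replicate 3 and the highest in Rpl22-/- replicate 2. Nhp2, an RNA-binding protein of the complex, had 822, 1015 and 840 counts against 756, 724 and 506 and did not overlap between genotypes, but its log2 fold change of 0.33 ± 0.11 missed the threshold (adjusted p = 0.0906). Dkc1, or dyskerin, the pseudouridine synthase of the complex, differed by 0.14 ± 0.10 (adjusted p = 0.472) and overlapped between genotypes.

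The 8 factors of the small subunit processome held no called gene, and 5 had positive and 3 negative log2 fold changes. At an unadjusted p under 0.05 there were 2, both higher, against 1629 higher and 1493 lower of all 14004 genes. DESeq2 and limma-voom called none of the 8. Imp4, which binds the precursor RNA with Mphosph10 and Imp3, had 823, 997 and 869 counts in Rpl22-/- libraries and 796, 754 and 529 in Rpl22+/+ libraries, without overlap in CPM and with a log2 fold change of 0.27 ± 0.10 (adjusted p = 0.144). Its partner Imp3 had the lowest log2 fold change of the 43, -0.14 ± 0.10 (adjusted p = 0.442), with 744, 643 and 607 counts against 793, 729 and 522. Mphosph10 lay between them at 0.11 ± 0.12. Heatr1, a scaffold also needed for RNA polymerase I transcription, had 1658, 1766 and 1554 counts against 1983, 1979 and 1157 and a log2 fold change of -0.13 ± 0.11 (adjusted p = 0.513). The remaining members had log2 fold changes of 0.25 ± 0.10 for Wdr43, 0.21 ± 0.11 for Nop14, 0.10 ± 0.14 for Rrp9, which binds the U3 snoRNA, and -0.06 ± 0.09 for Wdr75.

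Among 7 factors of later small subunit maturation, none was called, none had an unadjusted p under 0.05, and DESeq2 and limma-voom called none. Tsr1, a late assembly factor, had 1546, 1502 and 1490 counts in Rpl22-/- libraries and 1798, 1711 and 1153 in Rpl22+/+ libraries, with a log2 fold change of -0.14 ± 0.09 (adjusted p = 0.358). Bysl, or bystin, had 764, 784 and 627 counts against 786, 791 and 549 and a log2 fold change of -0.07 ± 0.11 (adjusted p = 0.752), which turned to 0.048 without Rpl22-/- replicate 3. In both genes the genotypes overlapped. The export factors Rrp12 and Ltv1 had log2 fold changes of 0.23 ± 0.12 and 0.18 ± 0.12, Nob1, the nuclease of the final cut, 0.09 ± 0.10, and the kinases Riok1 and Riok2 0.08 ± 0.10 and -0.03 ± 0.09.

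Of 11 large subunit assembly factors, 1 was called. Pes1 (chr11:3963975-3980004, + strand), the pescadillo protein of the PeBoW complex, had 1543, 1782 and 1700 counts without Rpl22 and 1405, 1317 and 954 with it. It rose by 0.34 ± 0.09 on the log2 scale (adjusted p = 0.0395), from 104 ± 4.5 CPM (SD, n = 3) to 133 ± 14.3 CPM, without overlap of the genotypes. Its exons overlap those of 4930556J24Rik on the other strand, which had at most 216 counts in a library, and reads of its pseudogene copies could be shared with it. Its PeBoW partners Bop1 and Wdr12 had log2 fold changes of 0.15 ± 0.12 and -0.08 ± 0.09, and Wdr12, with 1060, 1096 and 1020 counts against 1191, 1118 and 803, changed sign when the trend of counts on gene length or GC content was removed from each library (0.0044 and 0.062). Sbds, the protein mutated in Shwachman-Diamond syndrome, which readies the large subunit for translation, had 1044, 1097 and 1042 counts against 884, 875 and 651. Its genotypes did not overlap, and its log2 fold change of 0.29 ± 0.09 missed the threshold (adjusted p = 0.0619). Nop2, a ribosomal RNA methyltransferase, had 1329, 1566 and 1508 counts against 1282, 1236 and 835, likewise without overlap and without a call (0.29 ± 0.10, adjusted p = 0.0882). The other 6 ranged from -0.06 ± 0.10 for Ftsj3, a methyltransferase, to 0.22 ± 0.13 for Rrs1.

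**Figure D2:**
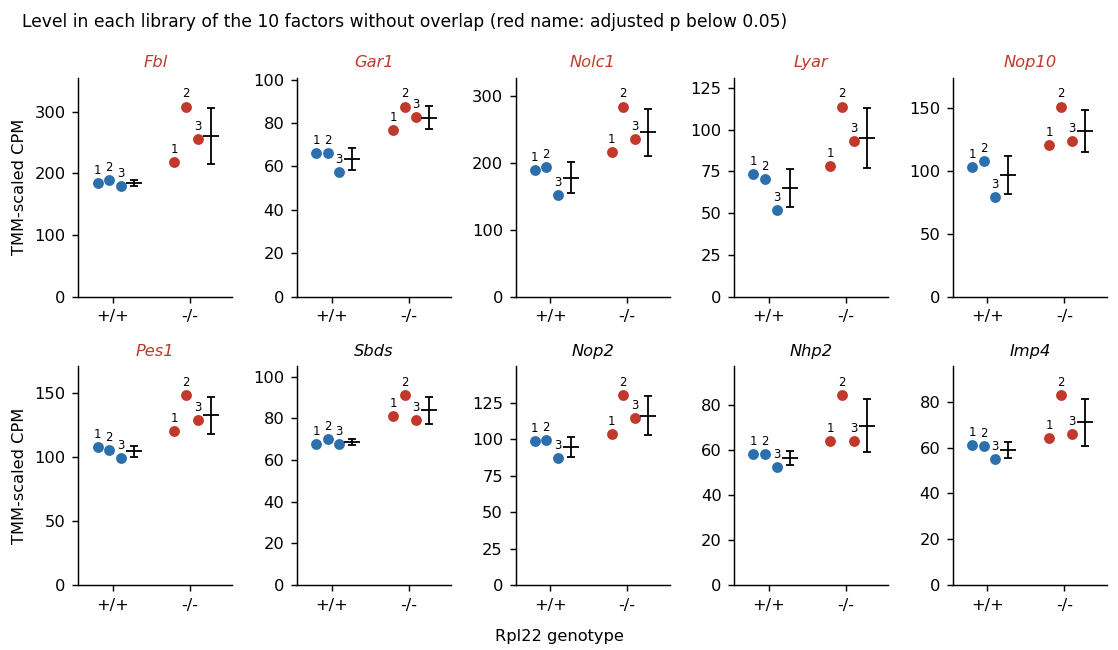
TMM-scaled CPM of each library (points, numbered by replicate) for the 10 factors whose genotypes do not overlap, with the mean and SD of 3 libraries beside the points and linear axes from 0. Rpl22-/- replicate 2 is the highest library in each panel, and Rpl22+/+ replicate 3 the lowest Rpl22+/+ library.

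Transcripts for the same complex were also compared with each other, since the ratio of their counts within a library does not depend on how that library was scaled. The ratios were not corrected for trends of counts on gene length or GC content. For 18 pairs of subunits in 5 complexes, each ordered so that the subunit with the higher log2 fold change came first, 7 ratios (38.9%) did not overlap between the genotypes. Among all pairs of genes tested the share was 25.9%. Fbl per Nop56 was 0.695, 0.833 and 0.766 in the Rpl22-/- libraries against 0.538, 0.546 and 0.624 in the Rpl22+/+ libraries. Pes1 per Wdr12 was 1.46, 1.63 and 1.67 against 1.18, 1.18 and 1.19, so the wild-type libraries held an almost fixed ratio that each Rpl22-/- library exceeded. With the length and GC trends removed, the log2 fold changes were 0.29 for Pes1 and 0.11 for Wdr12, against 0.34 and -0.08 in the main fit. Imp4 per Imp3 was 1.11, 1.55 and 1.43 against 1.004, 1.03 and 1.01. The H/ACA ratios Nop10 per Dkc1 and Gar1 per Dkc1 did not overlap either, with means of 0.526 ± 0.0361 and 0.329 ± 0.0069 (SD, n = 3) in Rpl22-/- HSCs against 0.425 ± 0.0097 and 0.280 ± 0.021 in Rpl22+/+ HSCs. The 3 ratios among Nop10, Gar1 and Nhp2 overlapped, as did the 3 among the RNA polymerase I subunits. With 3 libraries in each genotype, an exact two-sided permutation test of a single ratio cannot go below 0.1.

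**Figure D3:**
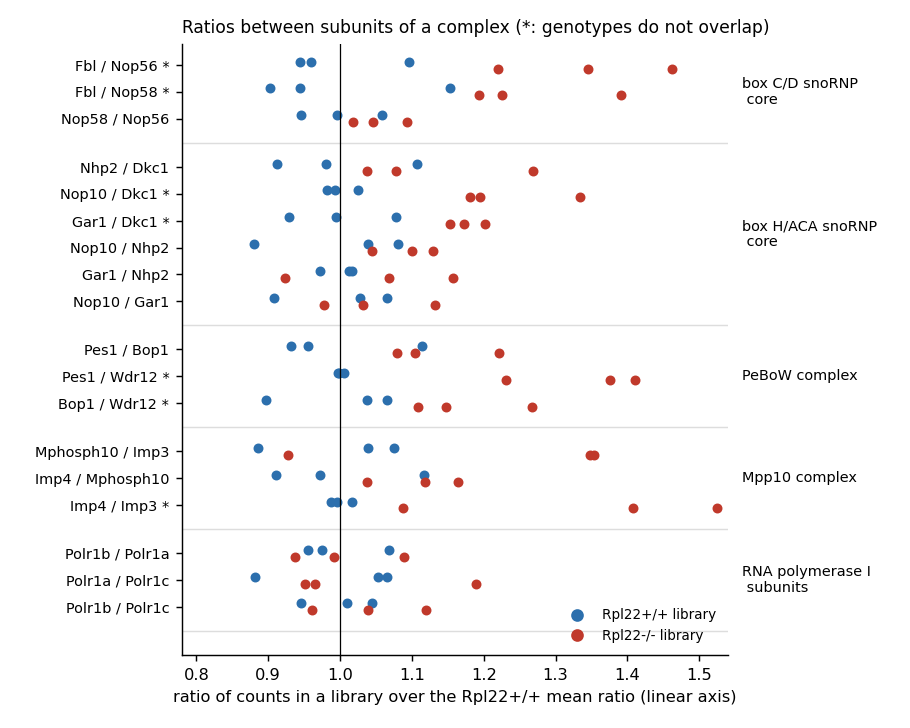
Ratio of the counts of 2 subunits of a complex in each library, divided by the mean ratio of the Rpl22+/+ libraries, on a linear axis, with blue points for Rpl22+/+ and red points for Rpl22-/- libraries. The 7 pairs marked with an asterisk do not overlap between genotypes, and those among RNA polymerase I subunits do.

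Start site sequences were read for the factors that were called higher. RefSeq windows on GRCm38.p6, from 250 bases before to 50 after the annotated start, were matched for 37 of the 43 factors in 40 windows, and Fbl, Npm1, Bop1, Rrs1, Rrp12 and Sbds were not matched. Of the called factors, Gar1 (chr3:129831377-129831646, - strand), Lyar (chr5:38220232-38220501, + strand), Nolc1 (chr19:46075597-46075866, + strand), Nop10 (chr2:112261676-112261945, + strand) and Pes1 (chr11:3963725-3963994, + strand) are shown from 250 bases before to 20 after the start, with Nop2 (chr6:125131633-125131902, + strand), which did not overlap between genotypes, as a further example of a start with an E-box. Capitals mark CACGTG, the E-box letters that Myc and Max are known to bind, and CCGGAAGT or its reverse complement, the letters of an ETS site.
Gar1: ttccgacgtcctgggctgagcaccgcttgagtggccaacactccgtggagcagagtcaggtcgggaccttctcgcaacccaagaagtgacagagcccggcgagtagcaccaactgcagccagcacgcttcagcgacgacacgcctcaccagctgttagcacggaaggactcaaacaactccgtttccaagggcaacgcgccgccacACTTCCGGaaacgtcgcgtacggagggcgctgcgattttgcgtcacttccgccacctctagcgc
Lyar: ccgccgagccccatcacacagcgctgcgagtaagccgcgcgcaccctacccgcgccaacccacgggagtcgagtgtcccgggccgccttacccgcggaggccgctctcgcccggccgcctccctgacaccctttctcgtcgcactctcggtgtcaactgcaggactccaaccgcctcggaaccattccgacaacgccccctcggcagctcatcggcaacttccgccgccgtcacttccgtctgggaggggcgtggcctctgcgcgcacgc
Nolc1: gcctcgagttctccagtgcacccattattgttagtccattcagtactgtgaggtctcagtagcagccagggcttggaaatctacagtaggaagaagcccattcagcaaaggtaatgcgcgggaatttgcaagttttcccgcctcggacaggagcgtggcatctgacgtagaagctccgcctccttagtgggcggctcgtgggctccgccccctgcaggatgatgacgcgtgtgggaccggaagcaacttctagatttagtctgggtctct
Nop10: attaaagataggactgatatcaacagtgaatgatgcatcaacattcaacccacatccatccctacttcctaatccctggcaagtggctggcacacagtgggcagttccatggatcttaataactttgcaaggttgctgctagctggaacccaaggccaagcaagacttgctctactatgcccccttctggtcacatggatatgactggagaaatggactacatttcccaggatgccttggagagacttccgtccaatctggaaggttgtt
Pes1: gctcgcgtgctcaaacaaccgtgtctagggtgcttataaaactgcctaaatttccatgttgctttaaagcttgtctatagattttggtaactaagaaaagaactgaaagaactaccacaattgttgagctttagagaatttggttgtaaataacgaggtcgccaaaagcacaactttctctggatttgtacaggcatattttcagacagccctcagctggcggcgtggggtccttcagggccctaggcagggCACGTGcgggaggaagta
Nop2: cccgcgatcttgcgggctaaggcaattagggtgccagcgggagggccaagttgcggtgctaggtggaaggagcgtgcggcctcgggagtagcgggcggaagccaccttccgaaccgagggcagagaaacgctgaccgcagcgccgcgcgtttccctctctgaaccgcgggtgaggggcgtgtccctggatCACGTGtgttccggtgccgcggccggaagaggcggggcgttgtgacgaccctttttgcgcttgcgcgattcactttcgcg

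CACGTG was found in 7 of the 40 windows (17.5%), those of Imp4, Ltv1, Mybbp1a, Nop2, Pes1, Tsr1 and Wdr43, against 7.15% of all 32851 windows. CCGGAAGT, searched on both strands, was found in 8 of the 40, against 3.89% of all. Also searched were TATAAA, found in 5.0% of the 40 windows against 13.6% of all, and CCAAT, in 35.0% against 37.4%. The full set of windows was not matched to the factors for expression level or GC content. The windows with CACGTG held 1 called factor, Pes1, and also Tsr1, which had a negative log2 fold change. Those with CCGGAAGT were the windows of Gar1, Nhp2, Ltv1 and Nip7, with positive log2 fold changes, and of Ebna1bp2, Heatr1, Polr1c and Tsr1, with negative ones, and Gar1 alone of these was called.

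Myc, a transcription factor known to drive ribosome production, was called higher, with 359, 408 and 429 CPM in the Rpl22-/- libraries against 331, 271 and 207 CPM in the Rpl22+/+ libraries. Its log2 fold change was 0.56 ± 0.13 (adjusted p = 0.0243), and its adjusted p ranged from 0.0066 to 0.117 when single libraries were left out. Max, the partner of Myc, and Mycn had log2 fold changes of 0.28 ± 0.09 and 0.28 ± 0.12 and were not called (adjusted p = 0.0725 and 0.174). The proliferation markers Mki67 and Top2a were not called, at 0.30 ± 0.14 (adjusted p = 0.236) and -0.08 ± 0.12 (adjusted p = 0.765). edgeR called 0 of 13 proliferation genes, with 4 higher and 1 lower at an unadjusted p under 0.05, DESeq2 called 1 and limma-voom none. The part of Myc in the levels of the factors was not tested.

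The pattern over libraries was uneven within each genotype. Rpl22-/- replicate 2 was the highest library for 30 of the 43 factors, and Rpl22+/+ replicate 3 was the lowest for 34. Over all genes tested these libraries were highest in 22.9% and lowest in 18.8%. The median deviation of the 43 factors from their own mean was 0.22 in Rpl22-/- replicate 2 and -0.23 in Rpl22+/+ replicate 3 on the log2 CPM scale, and between -0.015 and 0.035 in the other 4 libraries. The 37 factors without a call had mean deviations of -0.028 and -0.004 in Rpl22-/- replicates 1 and 3 and of 0.021 and 0.034 in Rpl22+/+ replicates 1 and 2. The 6 called factors had mean deviations of 0.05, 0.42 and 0.19 in the Rpl22-/- libraries against -0.14, -0.13 and -0.40 in the Rpl22+/+ libraries. The calls came from these same libraries, so this difference between called and other factors follows from how they were split. Rpl22+/+ replicate 3 was the library with the fewest counts, and Rpl22-/- replicate 2 the library with the highest neutrophil marker sum. Whether either bears on this pattern was not tested.

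**Figure D4:**
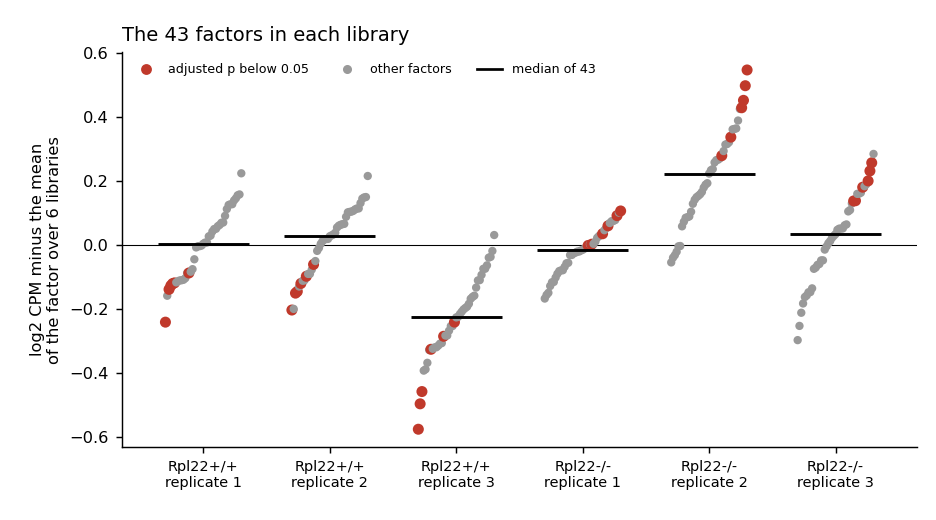
Log2 CPM of each of the 43 factors in each library minus its mean over the 6 libraries, with called factors in red and the median as a line. The medians are 0.22 in Rpl22-/- replicate 2 and -0.23 in Rpl22+/+ replicate 3, and between -0.015 and 0.035 in the other 4 libraries.

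The count of called factors depended on single libraries. Without Rpl22-/- replicate 2, Fbl alone was called, and without Rpl22-/- replicate 3 or any single Rpl22+/+ replicate 0 of the 43 were called, with 11 to 16 at an unadjusted p under 0.05. Without Rpl22-/- replicate 1, 14 were called. The calls over all genes fell too, from 780 to between 127 and 370 in the 5 fits with fewer calls, and rose to 1720 in the other. When Rpl22-/- replicate 2 and Rpl22+/+ replicate 3 were both left out, a choice made after the data were seen, 18 factors had positive and 25 negative log2 fold changes, the median was -0.012, and none was called in edgeR, with 10 at an unadjusted p under 0.05. That fit called 109 of all genes tested. In it, the 6 factors called with all libraries had positive log2 fold changes, each smaller than with all libraries. They were 0.34 for Fbl, 0.27 for Gar1, 0.25 for Lyar, 0.24 for Nolc1, 0.22 for Pes1 and 0.21 for Nop10. These 6 did not overlap between genotypes, and the libraries left out were their highest Rpl22-/- and lowest Rpl22+/+ library. Both the positive signs and the smaller values therefore follow from the choice of genes and libraries.

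Further genes of ribosome production were read from 4 lists. Of 130 tested, 89 had positive log2 fold changes and 3 were called, all higher (2.31%, against 3.28% of all genes), so their share of calls was near the background, while the median log2 fold change was 0.06. The 3 called genes were Trmt112 (0.43 ± 0.09, adjusted p = 0.0131), the partner of several methyltransferases, Wbscr22 (0.39 ± 0.11, adjusted p = 0.0479), which methylates small subunit RNA with Trmt112, and Wdr46 (0.40 ± 0.10, adjusted p = 0.0339), a small subunit processome protein. They belonged to the list of 42 other small subunit factors, of which 29 were positive. Trmt112 was at 84.8, 99.5 and 93.8 CPM in the Rpl22-/- libraries against 68.0, 66.9 and 71.4 CPM in the Rpl22+/+ libraries. Wbscr22 was at 53.9, 74.2 and 63.6 CPM against 49.2, 48.4 and 48.3 CPM, and Wdr46 at 55.1, 68.9 and 61.2 CPM against 48.5, 48.5 and 42.8 CPM. In none of the 3 did the genotypes overlap, and Rpl22+/+ replicate 3 was the highest wild-type library for Trmt112 and the lowest for Wdr46.

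Among 53 other large subunit factors, 34 had positive log2 fold changes and edgeR called none, while DESeq2 called 4 and limma-voom none. At an unadjusted p under 0.05 in edgeR, 8 were higher and 2 lower. Of all 14004 genes tested, 1629 were higher and 1493 lower at that level, and DESeq2 called 1056. The smallest p in the large subunit list was that of Rpf1 (0.38 ± 0.11, adjusted p = 0.0537). Of 21 genes for snoRNP assembly and RNA trimming, 14 were positive and edgeR, DESeq2 and limma-voom called none, with 2 higher and 2 lower at an unadjusted p under 0.05. There the smallest p was that of Exosc1 (0.36 ± 0.12, adjusted p = 0.0818), an exosome subunit. The 14 genes of RNA polymerase I transcription held 12 positive values between 0.01 and 0.21, none called by edgeR, DESeq2 or limma-voom and none with an unadjusted p under 0.05 in either direction. The smallest p in that list was that of Ttf1, the termination factor (-0.21 ± 0.10, adjusted p = 0.225), whose value was negative and did not overlap between genotypes.

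**Figure D5:**
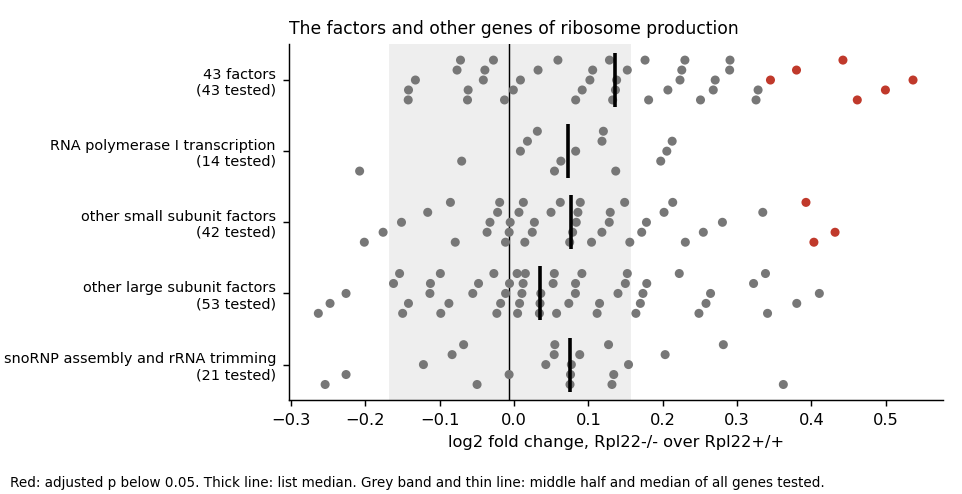
Log2 fold changes of the 43 factors and of 4 other lists of ribosome production genes (points, red where the adjusted p is below 0.05), with the median of each list as a thick line and the interquartile range and median of all genes tested as a grey band and thin line. The list medians are 0.14 for the factors and 0.03 to 0.08 for the other lists.

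Levels spanned a wide range over the 43 factors. Per kilobase of coding sequence, in Rpl22+/+ HSCs, Npm1 was at 1555 CPM, Ncl at 696 and Nop10 at 504. Next came the box C/D genes, Nop58 at 200.01, Fbl at 188 and Nop56 at 187, and the lowest levels were those of Rrp12 at 13.4, Polr1a at 21.5 and Heatr1 at 22.4. Within the H/ACA core, Dkc1 was at 149, Nhp2 at 123 and Gar1 at 91.3 CPM per coding kilobase. Coding length leaves out untranslated exons, so genes with a short coding sequence such as Nop10, of 192 coding bases, are overstated on this scale. In all, the 43 factors took between 0.669% and 0.990% of the scaled library, the lowest share in Rpl22+/+ replicate 3 and the highest in Rpl22-/- replicate 2.

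Several factors carry snoRNA genes within their bounds, on their own strand. The annotation placed 21 snoRNA genes in 7 factors, Dkc1, Gnl3, Ncl, Nop56, Nop58, Tsr1 and Wdr43. None of these 7 hosts was called, and their log2 fold changes ran from -0.14 to 0.27 with a median of 0.13. The 36 factors without such a gene ran from -0.14 to 0.54 with a median of 0.15 and held the 6 called factors. The snoRNAs lack a poly(A) tail, and their own levels were not analysed here.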

How the data were processed

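RNA sequencing libraries of sorted HSCs were compared between 3 Rpl22-/- and 3 Rpl22+/+ samples. The authors aligned the reads to mm10 with TopHat2 2.1.1, counted them per gene with HTSeq and deposited the whole-number counts without normalization. The strand setting and gene annotation of the counting are not given in the sources used here. Rows that name no gene, 58.6% to 60.9% of each library, were left out, as were 0 columns of other samples. The main test was the quasi-likelihood test of edgeR 4.0.16 under R 4.3.3, on 14004 genes that passed filterByExpr (minimum count 10), with TMM scaling and p-values adjusted by Benjamini-Hochberg over all of them. An SE is the log2 fold change, without its sign, divided by the root of the F statistic. Log2 values of single libraries used a pseudocount of 0.5 CPM, or of 0.5 counts in ratios. Gene bounds, lengths and GC content came from GENCODE M21 on GRCm38, the assembly also named mm10, with 29093 symbols matched directly and 1874 by an older symbol. Copies were sought with BLAST 2.17.0 at 95% identity over 200 bases.

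The members and all gene lists were chosen with earlier results of these data known. Any factor could be named. Library values were to be given for factors that were called, did not overlap between genotypes, or had the 5 highest or lowest log2 fold changes, and for each other list the called genes or the smallest p. Other normalizations, DESeq2 1.42.0, limma-voom (limma 3.58.1), other filters, a replicate block, length and GC trends (lowess, span 0.3) and leaving out libraries were alternatives. Tested on simulated data for this comparison, with 197 of 13833 genes changed, edgeR recovered 91.9% and made 11 false calls. Every simulated log2 fold change was larger in size than those of the factors, so recovery of changes as small as theirs was not tested. Replicates of a genotype differed by more than sampling noise. The precision of each value rests on 3 libraries of 9321123 to 13385850 counts. Tables and figures were made in Python 3.11.15 with numpy 2.4.6, pandas 2.3.3 and matplotlib 3.10.9.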

Additional observations from a re-analysis of the deposited data

How the results depend on the processing

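The count of called factors stayed at 6 with relative log expression or upper-quartile scaling, DESeq2, limma-voom and at least 10 counts in every sample, and was 5 by library size alone and 4 with the GC trend removed. It was 10 with no filter, 2 with the length trend removed and 2 with both trends removed. The calls over all genes moved too, from 780 of 14004 to 1056 with DESeq2 and 1422 of 20635 with no filter. They were 642 with the length trend removed, 509 with the GC trend removed and 505 with both removed. The median log2 fold change of the factors stayed between 0.09 and 0.17 under all of these settings. With single libraries left out, the called factors ranged from 0 to 14, the median from 0.05 to 0.21 and the called genes of the other 4 lists from 0 to 11. Without Rpl22+/+ replicate 3 and Rpl22-/- replicate 2 together, an alternative added after the data were seen, the values were 0, -0.012 and 0. The called genes of the other lists, 3 in the comparison reported, were 7 with DESeq2, 10 with no filter and 1 with both trends removed. Wdr12 turned positive with the length trend (0.0044), the GC trend (0.062) or both (0.11) removed, and Bysl ranged from -0.21 to 0.048 over the fits that leave libraries out. The causes were not tested, and the part of the smaller number of libraries in the fits that leave some out was not tested either.

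Libraries with the same replicate number had deviations correlated at -0.10, 0.05 and 0.04. Whether the numbers mark a shared litter or day is not given in the sources used here, and these correlations cannot settle it. With the replicate block 6 factors were called, the same 6, with a median of 0.14, and the other lists held 6 called genes. With the block and both trends removed, 4 factors and 1 other gene were called, the median was 0.15 and Wdr12 was at 0.11.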

Other observations

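The log2 fold change of the 43 factors fell with exon length (Spearman's rho = -0.33 over 43 genes), as it did over the 13361 genes tested that have a length (-0.21). With GC content it was 0.12 over the factors and 0.28 over all those genes. These are descriptions across genes that share the same 6 libraries. The 6 called factors had a median exon length of 2712 bases, against 3854 in the other 37.

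Exons of 19 factors overlap exons of a gene on the other strand, Pes1 alone among the called ones, and 7 factors have a processed pseudogene with at least 95% identity over 200 bases, Fbl and Pes1 among them.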
